A study of Mus musculus with 4 samples.

Results

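The core spliceosome snRNP genes are the genes for the protein parts of the small nuclear ribonucleoproteins (snRNPs) and for the Prp and Lsm proteins named with them. They were taken from the table of expression values by symbol alone: the families Sf3a, Sf3b, U2af, Snrpa to Snrpg, Snrnp, Prpf and Lsm followed by their numbers. The pattern found 53 of 24328 symbols. It uses no measured value, but it was chosen with earlier results of these data known. All 53 passed the filter on low values (1 FPKM or more in at least 2 libraries) that 12179 genes passed. FPKM is a read density scaled by transcript length and library size; the unit was inferred from the values, which TPM, a related unit, could also give.

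The libraries held polyadenylated RNA of quiescent muscle stem cells, also called satellite cells, taken from skeletal muscle without culture. The DEK group came from 4.5-month-old Pax7CreERT2/+; H11DEK-EGFP/+ mice and the YFP group from 7-month-old Pax7CreERT2/+; ROSA26YFP/+ mice, with 2 libraries each. All mice carried the Pax7CreERT2 driver, an inducible Cre recombinase expressed from the gene of the satellite cell factor Pax7, and all were perfused with paraformaldehyde before sorting. The comparison asks what overexpression of Dek, a DNA-binding chromatin protein with a known link to splicing, goes with in quiescent stem cells. Age, reporter and transgene locus went with the group and cannot be told apart from it, and the labels do not say whether the libraries of a group came from separate animals. The p-values below therefore set the group difference against the spread between these libraries. That spread may not be one between animals.

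The spliceosome removes introns from pre-mRNA and is assembled anew on each intron. U1 marks the start of the intron, U2AF and U2 mark its branch site and end, and the U4/U6 and U5 tri-snRNP then joins and is rearranged into the catalytic form. Each U snRNP other than U6 holds a ring of Sm proteins, and U6 holds a ring of the related Lsm proteins. Most of these genes serve splicing in satellite cells as in other cells and are regarded as housekeeping genes; a few belong to related particles for histone mRNAs, mRNA decay or a rare class of introns.

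Dek had 3196 and 1639.5 FPKM in DEK replicates 1 and 2, against 512 and 504 FPKM in YFP replicates 1 and 2 (log2 fold change 2.17, SE 0.31, limma adjusted p = 0.0195). Column totals lay between 541183 and 545123 FPKM, and the values carry no read counts, so the depth of the libraries is unknown. All 10 muscle stem cell markers were detected, with summed levels of 2422 and 2855 FPKM in DEK and 2765 and 2601 FPKM in YFP, and 0 of the 10 were called. Most of these sums came from Chodl and Sdc4. Single markers went both ways: 6 of the 10 had a log2 fold change above 0, from -0.46 for Myod1 to 0.62 for Cdh15. At an unadjusted limma p under 0.05, Pax7 and Calcr were higher in DEK and Myod1 lower (29.1% of all tested genes had such a p). Markers of endothelial cells, macrophages and fibro-adipogenic progenitors moved with the group. By limma 9 of 10 endothelial markers were called higher in DEK, with summed levels of 289 and 225 FPKM in DEK and 59.9 and 59.1 FPKM in YFP. Most of the YFP sums came from Tek, the marker not called, with 78.8 and 66.5 FPKM in DEK and 55.9 and 56.7 FPKM in YFP. Kdr and Ptprb were listed at 0 in both YFP libraries. For macrophage markers 5 of 7 tested were called higher, with sums of 202 and 197 FPKM in DEK and 2.89 and 26.7 FPKM in YFP, and Adgre1, C1qa, C1qb and C1qc were listed at 0 in both YFP libraries. Of the markers of fibro-adipogenic progenitors, 5 of 8 were called higher, with sums of 1126 and 1128 FPKM in DEK and 646 and 608 FPKM in YFP. Most of these sums came from Dpt and Cd34. Dpt had 675 and 697 FPKM in DEK and 412 and 363 FPKM in YFP. Cd34 had 355 and 311 FPKM in DEK and 197 and 207 FPKM in YFP. Erythroid markers summed to 24.9 and 347 FPKM in DEK and to 7.71 and 0.299 FPKM in YFP, with 1 of 4 tested called higher. Markers of mature myofibres summed to 79.2 and 28.2 FPKM in DEK and to 57.8 and 48.9 FPKM in YFP, with 0 of 3 tested called. Of these 3, Acta1, the largest part of the YFP sums, was lower in DEK (log2 fold change -1.04). Ckm and Tnnt3 were higher (1.38 and 1.41). Whether the differences in these markers came from other cells was not tested. Nor was it tested whether they play a part in the values of the splicing genes. In such bulk RNA fewer cells of a type and less RNA per cell cannot be told apart.

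The core spliceosome genes differed little between DEK and YFP. By limma, with Benjamini-Hochberg adjustment over all tested genes, 0 of the 53 were called higher and 0 lower in DEK at an adjusted p under 0.05, while 7.78% of all tested genes were called (4.57% higher and 3.21% lower). At an unadjusted p under 0.05, limma gave 3 members with DEK higher and 3 with DEK lower, which is 11.3% of the members against 29.1% of all tested genes (16.9% higher and 12.2% lower). The median log2 fold change was 0.05 over the members and 0.05 over all tested genes. Sf3a1, a U2 protein, was the middle gene of both sets. Log2 fold changes ran from -0.82 for Lsm10 to 0.50 for Snrnp200.

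No member reached a 2-fold difference on the log2(FPKM + 1) scale, against 8.36% of all tested genes. Among the 8482 tested genes whose mean on the log2(FPKM + 1) scale was at least that of 5 FPKM, 50 of them members, 5.47% reached it and 6.73% were called, none of them a member. The median size of the log2 fold change, sign ignored, was 0.15 among the members and 0.30 among all tested genes (0.28 at the higher level). The median standard error was 0.18 among the members and 0.20 among all tested genes. For 51 of the 53 members the 95% interval of the log2 fold change lay within -1 and 1 on the log2(FPKM + 1) scale, which for members at a few FPKM, such as Snrnp35 and Lsm12, can hold a change in FPKM of more than 2-fold; 68.0% of all tested genes and 76.3% of those at the higher level had such an interval. The exceptions were Lsm10 (-1.29 to -0.36) and Lsm6 (-0.77 to 1.52). With 2 libraries against 2, an exact permutation test of a single gene cannot give a p below 0.333.

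**Figure D1:**
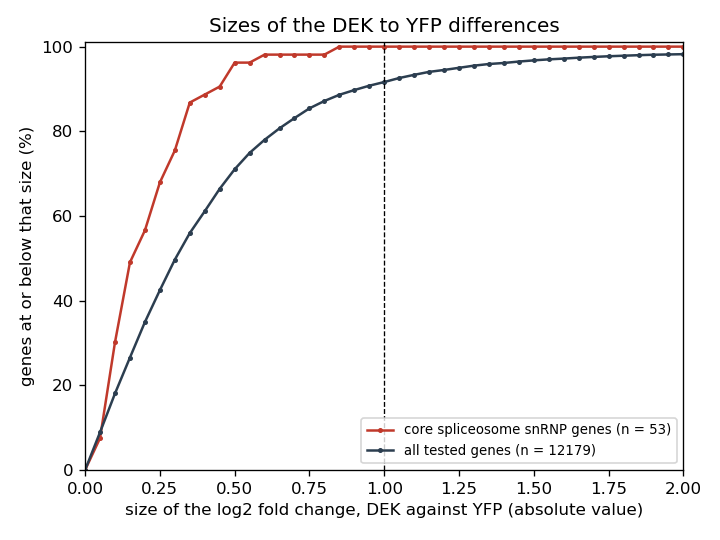
Share of genes (y axis, percent) whose log2 fold change between DEK and YFP, sign ignored, was at or below the value on the x axis, for the 53 core spliceosome genes and for the 12179 tested genes; the dashed line marks a 2-fold difference. At a size of 0.5 the curve of the members stood at 96.2% and that of all genes at 71.0%.

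In 22 members both DEK values lay on one side of both YFP values, 14 with DEK higher and 8 with DEK lower. That is 41.5% of the members (26.4% higher and 15.1% lower), against 60.9% of all tested genes (34.0% and 26.9%). A log2 fold change above 0 was found in 28 members (52.8%, against 54.7% of all tested genes). Most members thus had overlapping groups. Snrpb was the highest member and Lsm11 the lowest in each group's mean. The 53 members summed to 2935 and 3538 FPKM in DEK and to 3284 and 2978 FPKM in YFP, which was 0.538% and 0.651% of the column total in DEK and 0.607% and 0.550% in YFP. Rn45s, the ribosomal RNA precursor, took 5.15% and 5.55% of the total in DEK and 11.8% and 15.7% in YFP. Of the total without Rn45s the members made up 0.568% and 0.690% in DEK and 0.688% and 0.652% in YFP, so that the group with the higher mean share differed between these scalings, and the groups overlapped under both.

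**Figure D2:**
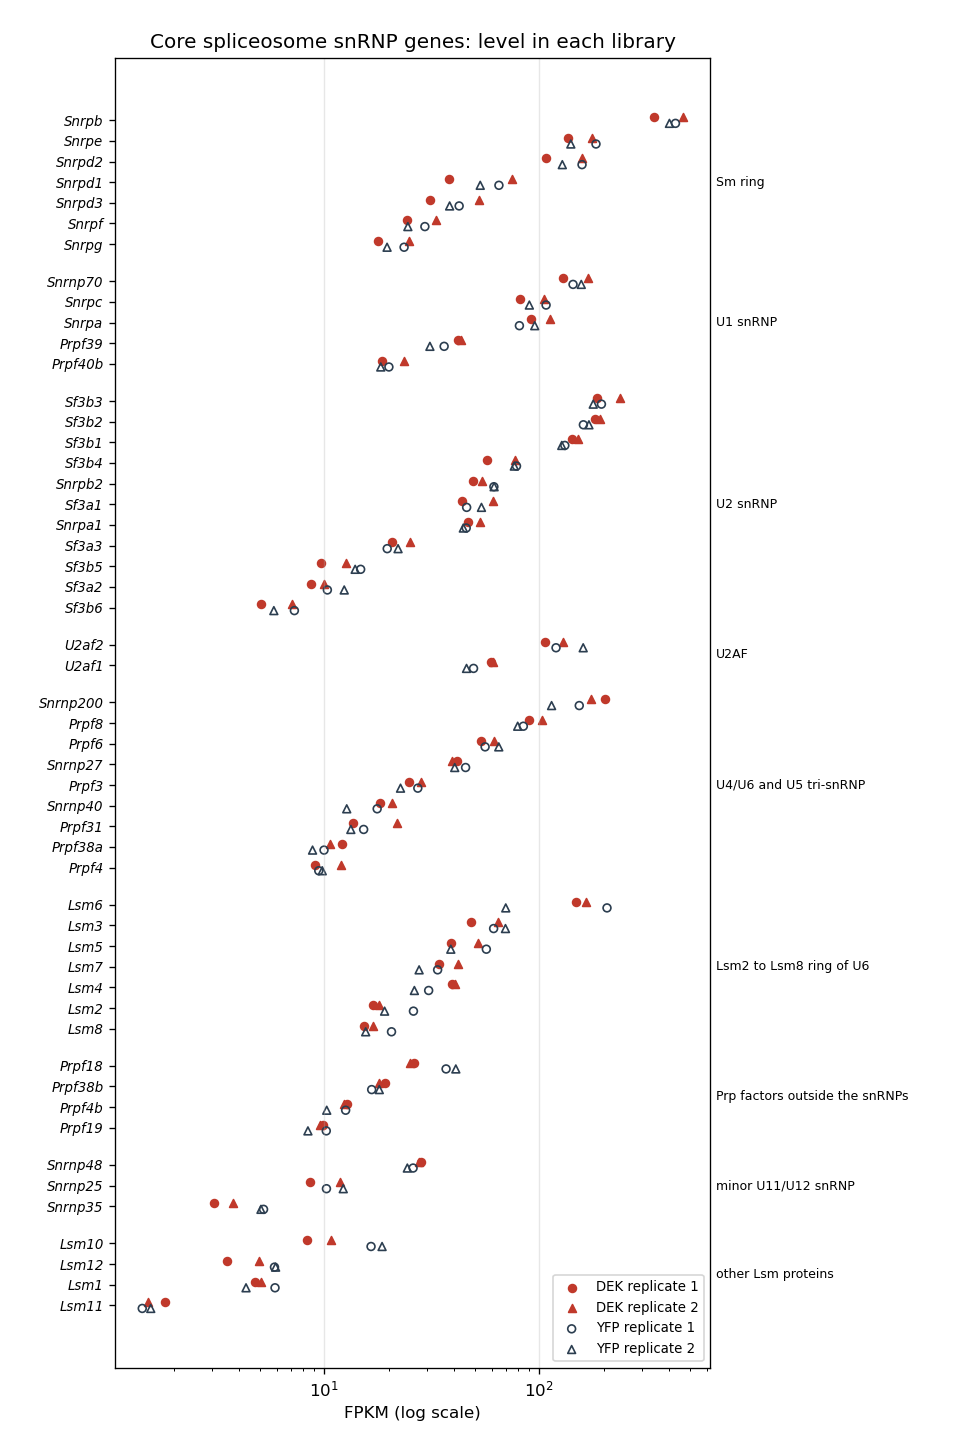
Level of 52 of the 53 genes in each library (x axis, FPKM on a log scale), grouped by the particle the protein belongs to and sorted by mean level within it; filled symbols are DEK, open symbols YFP, circles replicate 1 and triangles replicate 2. Levels span from about 1.58 FPKM for Lsm11 to 411 FPKM for Snrpb (means over 4 libraries), and the symbols of both groups lie close together within most genes.

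The gene farthest from equal levels was Lsm10, which encodes a ring protein found in the U7 snRNP, the particle that trims the 3' ends of replication-dependent histone mRNAs. It had 8.27 and 10.8 FPKM in DEK replicates 1 and 2, against 16.5 and 18.6 FPKM in YFP replicates 1 and 2. Both DEK values were below both YFP values, at roughly the same distance. The log2 fold change of -0.82 (SE 0.19) missed the threshold, with a limma adjusted p of 0.0556. It passed under 5 other settings of the limma fit: TMM scaling (adjusted p = 0.0422), quantile normalization (0.0432), Rn45s removed (0.0431), robust variance estimation (0.0471) and a filter at 5 FPKM (0.0484). Over all settings its adjusted p ran between 0.0422 and 0.241. Lsm11, its partner in the U7 ring, was the lowest member, with 1.81 and 1.51 FPKM in DEK, against 1.42 and 1.56 FPKM in YFP. The groups overlapped for Lsm11 (log2 fold change 0.09, SE 0.21).

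Prpf18, a factor of the second catalytic step that joins the exons, came next. It had 26.2 and 25.0 FPKM in DEK, against 36.9 and 40.9 FPKM in YFP. The DEK libraries were close to each other and below both YFP libraries (log2 fold change -0.58, SE 0.14, limma adjusted p = 0.0647). With Rn45s removed the adjusted p by limma was 0.0427, the single setting that passed, in a range of 0.0427 to 0.254. The other Prp factors that are not snRNP parts had overlapping or nearly equal levels. Prpf19, the ubiquitin ligase that heads the Prp19 complex, had 9.90 and 9.54 FPKM in DEK and 10.2 and 8.39 FPKM in YFP. Prpf4b, a kinase that acts on the tri-snRNP, stood at a log2 fold change of 0.13 (SE 0.18) and Prpf38b at 0.10 (SE 0.15).

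Promoters are shown for the members with an unadjusted limma p under 0.05 that had an entry, since these had the smallest p values of the members, and their start regions can then be compared. They are the 250 bases before the annotated start, from RefSeq on GRCm38.p6, each written 5' to 3' on the gene's strand; the deposited values were made on mm9, and no position was carried over. Lsm10 lies at chr4:126096403-126096652 (plus strand), Snrnp200 at chr2:127208136-127208385 (plus), U2af1 at chr17:31658765-31659014 (minus, the first of 2 listed starts) and Snrnp35 at chr5:124482905-124483154 (plus). Capitals mark CCGGAAG (the core site of ETS factors), CCAAT (the site of NF-Y) and TATAAA (the TATA box) on either strand; in U2af1 a CCAAT on one strand overlaps one on the other.
Lsm10: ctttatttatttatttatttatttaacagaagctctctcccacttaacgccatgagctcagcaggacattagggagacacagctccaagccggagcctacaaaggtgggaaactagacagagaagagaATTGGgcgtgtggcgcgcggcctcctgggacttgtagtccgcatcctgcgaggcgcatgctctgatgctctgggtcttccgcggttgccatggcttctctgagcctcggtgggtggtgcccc
Snrnp200: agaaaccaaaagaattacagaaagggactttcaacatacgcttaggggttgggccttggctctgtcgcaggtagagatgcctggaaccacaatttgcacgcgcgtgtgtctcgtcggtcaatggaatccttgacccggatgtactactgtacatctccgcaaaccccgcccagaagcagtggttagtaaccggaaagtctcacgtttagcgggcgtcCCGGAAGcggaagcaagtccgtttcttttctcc
U2af1: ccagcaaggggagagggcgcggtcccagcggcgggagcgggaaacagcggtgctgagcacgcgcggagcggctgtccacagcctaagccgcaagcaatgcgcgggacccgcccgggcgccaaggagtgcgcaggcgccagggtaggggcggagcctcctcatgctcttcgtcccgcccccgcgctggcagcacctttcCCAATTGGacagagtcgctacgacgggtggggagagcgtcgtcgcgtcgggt
Snrnp35: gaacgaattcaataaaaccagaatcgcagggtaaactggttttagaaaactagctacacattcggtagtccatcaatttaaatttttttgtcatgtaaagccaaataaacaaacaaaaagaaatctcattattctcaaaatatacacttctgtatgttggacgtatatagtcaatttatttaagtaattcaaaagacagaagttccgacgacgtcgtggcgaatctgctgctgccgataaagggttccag
No TATAAA was in these 4 windows. CCGGAAG was in Snrnp200 alone among them, and CCAAT on at least 1 strand in Lsm10 and U2af1.

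Over the 42 members with an entry, CCGGAAG on either strand was in the 250-base window of 15 (35.7%), against 7.83% of all 27025 genes with an entry and 16.0% of the 9111 that were tested here. The 15 came from several particles: Snrpg of the Sm ring, Snrpc of U1, Sf3a1, Sf3a2, Sf3a3, Sf3b2, Sf3b3, Sf3b6 and Snrpb2 of U2, Snrnp200, Prpf3 and Snrnp27 of the tri-snRNP, Lsm5, Prpf19 and Prpf4b. The other motifs were about as frequent as among tested genes. CCAAT was in 38.1% of the members and 40.3% of tested genes, GGGCGG (the GC box) in 64.3% and 65.1%, and TATAAA in 7.14% and 7.69%. AAGATGGCG (YY1) was in 1 member (2.38%), against 1.5% of tested genes. The shares of all genes with an entry were 37.5% for CCAAT, 35.4% for GGGCGG, 14.3% for TATAAA and 0.71% for AAGATGGCG. The median log2 fold change was 0.05 in the 15 members with CCGGAAG and 0.10 in the 27 without it. A match is a run of letters and no evidence of binding.

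The U4/U6 and U5 tri-snRNP brings the catalytic machinery. Of its 9 members 7 had a log2 fold change above 0 (54.7% of all tested genes did). In 4 of the 9 both DEK values lay above both YFP values, against 34.0% of all tested genes. The median was 0.23, and 0 were called. Snrnp200 encodes Brr2, the helicase that unwinds U4 from U6. It had 201 and 174 FPKM in DEK, against 153 and 114 FPKM in YFP. The groups did not overlap, but the YFP libraries differed from each other more than the DEK libraries did (log2 fold change 0.50, SE 0.19, limma adjusted p = 0.148). Prpf8, the large scaffold protein at the catalytic centre, had 89.9 and 103 FPKM in DEK, against 84.3 and 79.4 FPKM in YFP. Its log2 fold change was 0.23 (SE 0.14). Snrnp40, a repeat protein of U5, had 18.2 and 20.6 FPKM in DEK, against 17.6 and 12.7 FPKM in YFP, where YFP replicate 2 stood low (log2 fold change 0.35, SE 0.20).

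Prpf31, which encodes another tri-snRNP protein, had 13.6 and 21.8 FPKM in DEK, against 15.2 and 13.3 FPKM in YFP. Here DEK replicate 2 alone stood high. Prpf3 and Prpf4, both of the U4/U6 particle, stood at log2 fold changes of 0.09 (Prpf3, SE 0.17) and 0.11 (Prpf4, SE 0.19). Prpf38a, which is needed to activate the spliceosome, had 12.1 and 10.6 FPKM in DEK, against 9.97 and 8.82 FPKM in YFP. Prpf6, a bridge between U5 and U4/U6, had 53.6 and 61.8 FPKM in DEK, against 56.0 and 64.8 FPKM in YFP. Snrnp27 had 41.3 and 39.3 FPKM in DEK, against 45.4 and 40.4 FPKM in YFP. Levels within the tri-snRNP, which are per transcript length, thus ranged from a mean of 10.1 FPKM for Prpf4 to 161 FPKM for Snrnp200 over the 4 libraries.

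U2 binds the branch site through its SF3a and SF3b subcomplexes. Of 11 members 6 had a log2 fold change above 0, from -0.34 for Sf3b5 to 0.18 for Sf3b1, and 0 were called. Sf3b1, the scaffold that clamps the branch site, had 142 and 152 FPKM in DEK, against 131 and 127 FPKM in YFP. Sf3b2, a large SF3b subunit, had 181 and 191 FPKM in DEK, against 160.4 and 170.2 FPKM in YFP. In both genes the DEK values stood above the YFP values by little: the log2 fold changes were 0.18 (SE 0.13, limma adjusted p = 0.393) and 0.17 (SE 0.13, adjusted p = 0.429). Sf3b3, at 185 and 238 FPKM in DEK and 195 and 178 FPKM in YFP, had the second highest mean level of all members, and its groups overlapped.

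The small SF3b subunits were far lower in level than the large ones. Sf3b5 had 9.69 and 12.7 FPKM in DEK, against 14.8 and 13.9 FPKM in YFP (log2 fold change -0.34, SE 0.19). Sf3b6, which contacts the branch site adenosine, had 5.07 and 7.06 FPKM in DEK, against 7.26 and 5.83 FPKM in YFP. Sf3b4 lay between them and the large subunits, with 57.1 and 77.2 FPKM in DEK and 78.4 and 76.6 FPKM in YFP; DEK replicate 1 stood low. The SF3a subunits Sf3a1, Sf3a2 and Sf3a3 had mean levels of 51.1, 10.3 and 21.8 FPKM over the 4 libraries, and their log2 fold changes were 0.05, -0.26 and 0.12, with standard errors between 0.17 and 0.20. The U2-specific partners Snrpa1 and Snrpb2, whose proteins bind each other and the same stem of U2 RNA, stood on opposite sides of YFP. Snrpa1 had 46.6 and 53.3 FPKM in DEK, against 45.7 and 44.3 FPKM in YFP, while Snrpb2 had 49.0 and 54.3 FPKM in DEK, against 61.5 and 61.7 FPKM in YFP. Neither was called (limma adjusted p = 0.545 and 0.272).

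U2AF is a pair of proteins that reads the end of the intron: U2af2 the pyrimidine tract and U2af1 the AG. U2af1 had 59.4 and 61.0 FPKM in DEK, against 49.5 and 45.9 FPKM in YFP. The libraries of each group lay close together and the groups did not overlap (log2 fold change 0.33, SE 0.13, limma adjusted p = 0.167). U2af2 had 106 and 128 FPKM in DEK, against 119.6 and 160.1 FPKM in YFP, with overlapping groups (log2 fold change -0.24, SE 0.19). The difference between the pair of genes was not tested.

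U1 recognizes the 5' splice site. Its own proteins had overlapping groups. Snrnp70, the protein that links U1 to other splicing factors, had 129 and 169 FPKM in DEK, against 144 and 157 FPKM in YFP. Snrpa, which binds a stem loop of U1 RNA, had 91.3 and 112 FPKM in DEK, against 80.8 and 95.3 FPKM in YFP, and Snrpc, which stabilizes the pairing with the splice site, had 81.4 and 106 FPKM in DEK, against 108 and 89.9 FPKM in YFP. The U1-associated gene Prpf39 had both DEK values above both YFP values. These were 41.8 and 43.0 FPKM in DEK, against 36.1 and 31.0 FPKM in YFP (log2 fold change 0.33, SE 0.15, limma adjusted p = 0.198). Prpf40b had 18.6 and 23.5 FPKM in DEK, against 20.0 and 18.3 FPKM in YFP, with overlapping groups (log2 fold change 0.12, SE 0.18).

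The Sm ring is shared by the U1, U2, U4 and U5 particles and is built from 7 proteins in equal numbers. The transcripts were not at equal levels. Snrpb, which encodes the B and B' proteins, had 341 and 468 FPKM in DEK, against 430.0 and 403 FPKM in YFP. Snrpg had 17.7 and 24.7 FPKM in DEK, against 23.5 and 19.6 FPKM in YFP. Means over the 4 libraries came in the order Snrpb (411 FPKM), Snrpe (159), Snrpd2 (138), Snrpd1 (57.6), Snrpd3 (41.0), Snrpf (27.9) and Snrpg (21.4). This order held within each of the 4 libraries. Across libraries, the ranges of the neighbours Snrpe and Snrpd2, Snrpd1 and Snrpd3, Snrpd3 and Snrpf, and Snrpf and Snrpg overlapped. Processed copies of such short genes can take a share of their reads, so the levels are uncertain to that extent. None of the 7 had groups that stood apart, and log2 fold changes ran from -0.14 for Snrpd1 to 0.08 for Snrpf.

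Between libraries of 1 group the Sm genes shifted together. All 7 were higher in DEK replicate 2 than in DEK replicate 1, by a median of 0.46 on the log2 scale, and all 7 were lower in YFP replicate 2 than in YFP replicate 1, by differences from -0.39 for Snrpe to -0.09 for Snrpb. Snrpd1 had 38.1 and 74.3 FPKM in DEK replicates 1 and 2, with 64.9 and 53.1 FPKM in YFP. Snrpd3 had 31.0 and 52.4 FPKM in the DEK libraries, with 42.4 and 38.3 FPKM in YFP. In both genes the YFP libraries lay between the DEK libraries. Snrpf had 24.3 and 33.2 FPKM in DEK, with 29.4 and 24.5 FPKM in YFP, again inside the range of DEK. All 11 genes of U2 and all 7 of the Lsm2 to Lsm8 ring were also higher in DEK replicate 2, with medians of 0.27 and 0.16. Over all members 43 of 53 (81.1%) were higher in DEK replicate 2, against 62.6% of all tested genes, and the median difference was 0.23 against 0.09. In YFP 18 of 53 were higher in replicate 2 (34.0%, against 40.5% of all tested genes).

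The Lsm2 to Lsm8 proteins form the ring at the 3' end of U6. Of the 7 genes 3 had a log2 fold change above 0, the median was -0.06, and 0 were called. Lsm4 had 39.3 and 40.4 FPKM in DEK, against 30.6 and 26.2 FPKM in YFP, with DEK above YFP in both libraries (log2 fold change 0.48, SE 0.15, limma adjusted p = 0.103). Lsm7 had 34.3 and 41.9 FPKM in DEK, against 33.7 and 27.6 FPKM in YFP. Lsm2 stood on the other side, with 16.8 and 18.0 FPKM in DEK, against 26.0 and 19.1 FPKM in YFP (log2 fold change -0.34, SE 0.19). Lsm3, Lsm5 and Lsm8 had overlapping groups and log2 fold changes of -0.22, -0.06 and -0.15.

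Lsm6 was the member with the widest spread. It had 148 and 166 FPKM in DEK, against 207 and 69.8 FPKM in YFP replicates 1 and 2. The YFP libraries lay on either side of DEK, so that its log2 fold change of 0.38 (SE 0.47) became 1.15 without YFP replicate 1 and -0.40 without YFP replicate 2. Lsm1, which takes the place of Lsm8 in the cytoplasmic ring that promotes mRNA decapping, had 4.78 and 5.10 FPKM in DEK, against 5.90 and 4.33 FPKM in YFP. Lsm12 had 3.53 and 4.97 FPKM in DEK, against 5.87 and 5.94 FPKM in YFP, with both DEK values below YFP (log2 fold change -0.41, SE 0.21).

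The minor spliceosome removes a small class of introns with the U11 and U12 particles. Of its 3 members Snrnp35 had 3.05 and 3.77 FPKM in DEK, against 5.22 and 5.08 FPKM in YFP. The groups did not overlap (log2 fold change -0.48, SE 0.20, limma adjusted p = 0.170). Snrnp48 had 28.1 and 27.7 FPKM in DEK, against 25.9 and 24.3 FPKM in YFP (log2 fold change 0.15, SE 0.14). Snrnp25 had overlapping groups, with a log2 fold change of -0.14 (SE 0.21).

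**Figure D3:**
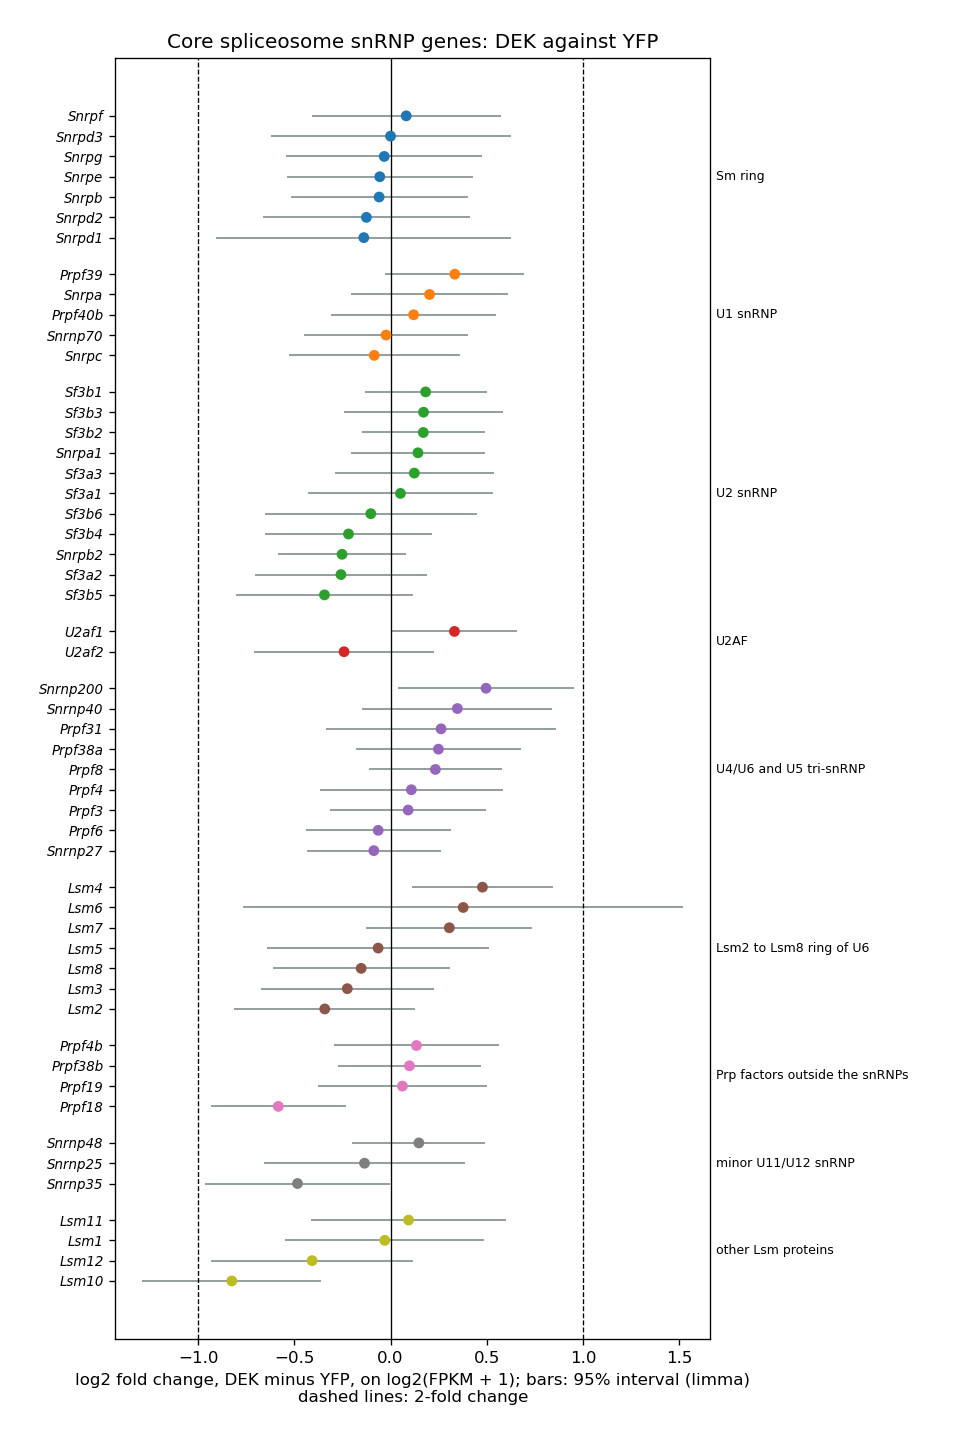
Log2 fold change of 52 of the 53 genes, DEK minus YFP on log2(FPKM + 1), with its 95% interval from limma (bars), grouped by particle and sorted within it; dashed lines mark a 2-fold difference. The intervals of Lsm4, Snrnp200 and U2af1 lie above 0 and those of Lsm10, Prpf18 and Snrnp35 below it before adjustment, and those of Lsm6 and Lsm10 reach past a dashed line.

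The longest members lay above YFP and most of the shortest below, by small amounts. For each gene the longest protein-coding transcript of GENCODE M21 was taken, which all 53 members and 90.8% of the tested genes had. It need not be the transcript expressed in these cells, which the deposited values do not show. Sf3b5, a small subunit, was thus placed at 3841 nt, and the length classes below rest on this choice. All 11 members with 4000 nt or more had a log2 fold change above 0 (median 0.17), among them Snrnp200, Prpf8, Sf3b1, Sf3b3 and Prpf39. Of the 10 members under 1000 nt, 2 were above 0, Lsm4 and Snrpf, and the median was -0.14; the others were Snrpd1, Snrpe, Lsm2, Lsm3, Lsm5, Lsm8, Lsm10 and Snrnp25. The classes between them did not differ in step with length: the median was -0.02 (8 of 17 above 0) from 1000 to under 2000 nt and -0.03 (7 of 15 above 0) from 2000 to under 4000 nt. In all tested genes the medians were 0.00 in the longest class and 0.07 in the shortest. Spearman's rho between length and log2 fold change was 0.36 across the 53 members and -0.08 across 11058 tested genes, as a description of genes that share the same 4 libraries.

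The relation moved with single libraries. With a DEK library left out, rho among the members was 0.18 (replicate 1 out) and 0.38 (replicate 2 out); with a YFP library left out it was 0.24 (replicate 1 out) and 0.38 (replicate 2 out). Without DEK replicate 1, 6 of the 10 short members were above 0, and without YFP replicate 1 also 6; without DEK replicate 2, 8 of the 11 long members were. Scaling moved the counts too: with Rn45s removed 8 of 11 long members and 1 of 10 short ones were above 0, and after quantile normalization 9 and 2. Against the median of all genes, 10 of 11 long and 2 of 10 short members stood above it under both scalings and in the values as deposited. Between the DEK libraries, length and the difference of replicate 2 from replicate 1 had a rho of -0.35 among the members and -0.10 among all tested genes. All 10 members under 1000 nt were higher in DEK replicate 2, by a median of 0.39, against 0.19 in all tested genes of that length. The share of Rn45s, given above, was lower in both DEK libraries than in both YFP libraries, and its part in these differences was tested only as the scaling with Rn45s removed.

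**Figure D4:**
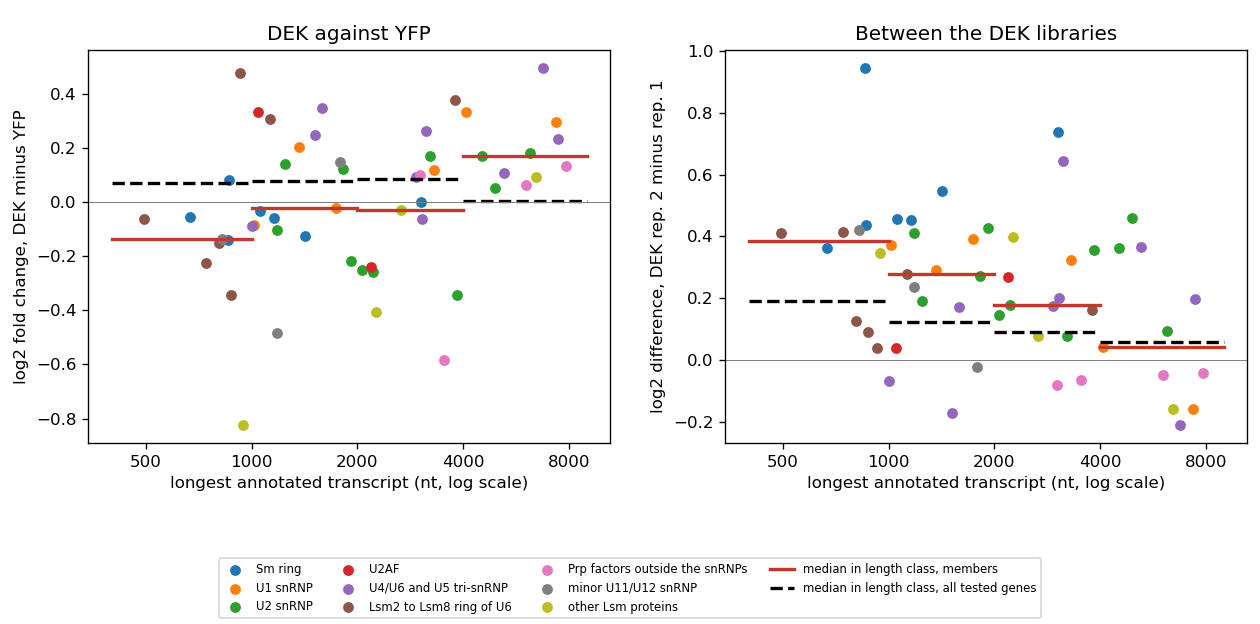
Longest annotated transcript of each member (x axis, nt, log scale) against its log2 fold change between DEK and YFP (left) and its log2 difference between DEK replicates 2 and 1 (right); red lines are medians of the members and dashed black lines medians of all tested genes in 4 length classes with limits at 1000, 2000 and 4000 nt. On the left the members' medians lie at -0.14 in the shortest and 0.17 in the longest class, and on the right at 0.39 and 0.04.

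Other genes of the pathway were followed through 7 lists of 86 genes, of which 85 were tested. By limma 1 was called higher in DEK and 0 lower, against 4.57% and 3.21% of all tested genes. Before adjustment 14 were above and 6 below YFP at a p under 0.05, against 16.9% and 12.2% of all tested genes, and the median log2 fold change was 0.11. The called gene was Cd2bp2, a U5 protein that binds the Prpf6 protein and leaves before the tri-snRNP forms. It had 14.3 and 15.3 FPKM in DEK, against 5.86 and 3.66 FPKM in YFP. Both DEK values were more than 2-fold above both YFP values (log2 fold change 1.48, SE 0.23, limma adjusted p = 0.0240). With 1 library left out the log2 fold change lay between 1.20 and 1.76. On the same 12179 genes the limma call was then lost each time, at adjusted p values of 0.191 and 0.139 without DEK replicate 1 or 2 and of 0.0554 and 0.109 without YFP replicate 1 or 2, and also with no filter on low values (0.181). With the filter applied to the 3 libraries left, limma called it without DEK replicate 2 (adjusted p = 0.0493) and without YFP replicate 1 (0.0407), but not without DEK replicate 1 (0.0673) or YFP replicate 2 (0.0947). Over all settings the adjusted p by limma ran between 0.0168 and 0.191. The other 10 partners of the tri-snRNP were not called.

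In the list of snRNP assembly genes, whose SMN complex loads the Sm ring onto U RNAs, 16 of 18 had a log2 fold change above 0 (54.7% of all tested genes did) and the median was 0.18, with 0 called. Before adjustment limma gave 3 of the 18 above and 2 below YFP at a p under 0.05, against 16.9% and 12.2% of all tested genes. Snupn, the import adaptor that brings assembled snRNPs into the nucleus, had 12.8 and 12.2 FPKM in DEK, against 7.91 and 6.06 FPKM in YFP (log2 fold change 0.77, SE 0.19, limma adjusted p = 0.0651). Smn1 itself had 6.36 and 6.81 FPKM in DEK, against 7.69 and 5.48 FPKM in YFP. U2 and branch site partners had a median of 0.22 over 14 genes, led by Htatsf1 (log2 fold change 0.52, limma adjusted p = 0.0846). Factors of the Prp19 complex and the catalytic steps had a median of 0.11 over 21 genes, with the cyclophilin Ppie at 0.56 (limma adjusted p = 0.0759).

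In the exon junction complex, laid down on spliced mRNA, the median was -0.15 over 5 genes. Rbm8a had 39.1 and 25.0 FPKM in DEK, against 16.4 and 15.6 FPKM in YFP (log2 fold change 0.92, SE 0.23, limma adjusted p = 0.0657). Its binding partner Magoh had 7.41 and 5.89 FPKM in DEK, against 7.15 and 7.75 FPKM in YFP. Partners of the cytoplasmic Lsm ring in mRNA decay had a median of -0.18 over 10 genes. Lsm14a, an RNA granule protein of the wider Lsm family, had 32.5 and 43.6 FPKM in DEK, against 65.4 and 64.3 FPKM in YFP (log2 fold change -0.77, SE 0.18, limma adjusted p = 0.0558). Minor spliceosome partners had a median of 0.04 over 6 genes, with Zrsr1 at -0.37 (limma adjusted p = 0.343).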

How the data were processed

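Polyadenylated RNA of sorted, fixed muscle stem cells was sequenced in 2 DEK and 2 YFP libraries. Per the submitters' processing notes, STAR 2.5.3a, StringTie 1.3.3 and R 3.4.1 were used on build mm9; settings and annotation are not given in the sources used here. The authors deposited 1 value for each symbol in each library. The deposited values are taken as FPKM made by the authors, scaled by transcript length and library size; the unit is inferred, and depth is unknown. The table was used as deposited, and 0 value columns were left out.

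The scale was log2(FPKM + 1), and limma 3.58.1 (R 4.3.3) was run on genes that reached 1 FPKM in 2 libraries or more (linear model, empirical Bayes with trend, no covariates, two-sided, Benjamini-Hochberg over 12179 genes, calls at an adjusted p under 0.05). The fit was tested on simulated data in which the changed genes differed by well over 2-fold. That test says nothing on differences as small as those of the members. Fold changes on this scale understate low genes. RNA came from a kit for fixed tissue and cDNA from a low-input kit, per the labels. TMM factors were computed on the FPKM as a scaling only. Members, lists and settings were chosen with earlier results of these data known. Named were members called or with the smallest p, the extremes of each particle and of level, and per related list the called genes and the one with the smallest p; other members are named to account for all, except 1 member that is counted but not reported here by name. In the related lists Smn1 and Magoh fall outside this rule and were chosen after their values were seen, as was the reading of length and of the DEK libraries against each other. Promoters came from RefSeq (GRCm38.p6) and transcript lengths from GENCODE M21. Alternatives were each library left out (with the same genes, or refiltered on the 3 left), replicate number as a block, an added 0.1 or 5, no filter or 5 FPKM, TMM, quantile normalization, Rn45s removed, no trend, robust estimation and an adjusted p under 0.1.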

Additional observations from a re-analysis of the deposited data

How the results depend on the processing

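Under every setting run, 0 members were called higher in DEK by limma. Members called lower numbered 0 as reported and 1 (Lsm10) after TMM scaling, after quantile normalization, with robust estimation and at 5 FPKM or more in 2 libraries, where 52 members were tested. They numbered 2 with Rn45s removed and 2 at an adjusted p under 0.1, where all genes called numbered 2096 against 948; with no filter these numbered 106. Leaving out 1 library gave 0 calls in each direction, with the median of the members between -0.07 (without DEK replicate 2) and 0.16 (without DEK replicate 1); it was -0.08 with Rn45s removed, where the median of all genes moved from 0.05 to -0.07. With the same genes tested, all genes called numbered 0, 184, 115 and 69 without DEK replicate 1, DEK replicate 2, YFP replicate 1 and YFP replicate 2, so few that 0 members says nothing on stability; refiltered on the 3 libraries left, a setting chosen after seeing the data, they numbered 302, 780, 168 and 83, with 0 members. With the replicate number as a block, 618 genes and 0 members were called, with 2 members higher and 2 lower at an unadjusted p under 0.05; deviations of same-numbered libraries had a correlation of 0.06 across genes, and nothing in the labels says that the numbers pair them. Members above 0 numbered 28 as reported, 27 after TMM, 25 after quantile normalization and 19 with Rn45s removed. With a library left out they ran from 20 to 40. The sign of a member whose interval holds 0 is therefore uncertain. So are the counts of members above 0 given for particles and length classes. The 6 members at an unadjusted p under 0.05 changed sign in 0 settings. In each of them both DEK values lay on one side of both YFP values. Leaving out a library could thus not change their sign, and only the scalings (TMM, quantile normalization, Rn45s removed) could have done so.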
